A study of Homo sapiens with 14 samples.

Results

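The 36 genes described here encode the machinery that cuts and polyadenylates pre-mRNA and ends transcription, together with subunits of the Integrator complex. They were taken by gene symbol from a table of N6-methyladenosine (m6A) levels at single adenosines, which names 13744 genes and lists 407343 sites. The 36 genes hold 1349 of those sites, and none of these sites stands under another gene. Levels came from GLORI, a chemical assay that turns unmethylated adenosine into a base read as G while m6A is still read as A. Polyadenylated RNA was taken from CAOV3 ovarian cancer cells after 24 h with 1 uM STM3675 and from 6 cancer cell lines after 24 h with the solvent DMSO. A549 is a lung line and OE21 an oesophageal one, whereas SKOV3, EFO21, COV644 and CAOV3 are ovarian. Each of the 7 groups has 2 libraries, 14 in all. The study's subject is the blocking of METTL3, which carries the active site of the nuclear m6A writer, and STM3675 was given to CAOV3 only. Nothing in the labels says that the 2 libraries of a group came from separate cultures. The p-values thus measure only read counting and the spread between libraries, which may be technical. In the main site fits this spread was 1 value shared by all sites, not each site's own.

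The 3′ end of most messenger RNAs is made by the cleavage and polyadenylation specificity factor (CPSF), which recognises the AAUAAA signal and holds the endonuclease, with cleavage stimulation factor (CstF) on the GU-rich sequence downstream and cleavage factors I and II beside them. A poly(A) polymerase then adds the tail, and an exonuclease degrades the RNA left on RNA polymerase II until transcription ends. Integrator is a separate complex with its own endonuclease and a bound phosphatase. It processes small nuclear RNAs and ends transcription early at many genes. METTL3 acts with METTL14 mainly on the motif DRACH, where D is A, G or T, R is A or G and H is A, C or T, and m6A is known to concentrate in last exons and in long internal exons.

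A site was listed where at least 1 DMSO library had 20 or more reads and an m6A level of 25% or more. DMSO values are thus chosen to be high, and STM3675 values played no part in the choice. Of the member sites, 69.9% passed this limit in exactly 1 DMSO library, against 68.17% of all sites. DRACH made up 33.14% of the member sites (447 sites) and 38.37% of all listed sites. Libraries held 14047302 to 28663588 reads with A or G at listed sites, of which 44844 to 98287 fell on member sites. The median level of non-DRACH sites, taken as the unconverted background, was 8.89% and 8.85% with STM3675, 3.33% to 4.14% in the COV644 and OE21 libraries with DMSO and 10.3% to 15.8% in the other DMSO libraries. It is a rough measure only. These listed sites were chosen for a high level in some DMSO library, and 7.87% of those tested in CAOV3 fell with STM3675. As a check of the labels, PAX8, a factor of the Müllerian lineage, had 16.0 to 357 RPM (reads at its listed sites, scaled to a common library total by the usual RPM factor) in ovarian libraries, 17.3 to 23.8 in OE21 and 2.04 to 3.51 in A549. PAX8 thus set the ovarian libraries apart from A549 but not all of them from OE21. KRT5, a squamous keratin, had 3454 to 3873 RPM in OE21 and at most 48.5 elsewhere.

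The member sites with the largest called fall after STM3675 are shown first, 1 per gene, since most results turn on such sites. Each 5-base motif is written 5′ to 3′ on the RNA strand in DNA letters, with the measured adenosine in capitals, and its position is in GRCh38.
INTS7 211942029: gaAct
PPP1R10 30601337: agAct
CLP1 57660953: gaAct
CSTF1 56403723: tgAct
INTS5 62647891: ggAca
WDR82 52257283: agAct
PAPOLG 60797306: gaAct
RBBP6 24540288: tgAct
INTS6 51365691: agAct
CSTF2T 51699449: ggAca
SCAF4 31671396: agAct
All of these fit DRACH, and 9 of the 11 end in ACT. The 12th gene by size of fall, INTS9, had its site at position 28767960 of chromosome 8.

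After STM3675 the m6A level of the whole gene, that is the share of A among A and G reads summed over tested sites, fell in 28 of 35 members that could be tested and rose in 0. The genes that fell had 13.9% to 59.0% with DMSO, and with STM3675 they all lay between 6.17% and 14.4%. The medians over non-DRACH sites with STM3675, 8.89% and 8.85%, lie inside this range. These levels pool DRACH with non-DRACH sites. Over DRACH sites alone the same genes had 5.16% (PAPOLG) to 18.5% (CSTF2T) with STM3675. Over all 11221 genes tested, 81.7% fell and 0.0624% rose (quasi-binomial model, Benjamini-Hochberg adjusted p under 0.05). The median difference was −19.5 percentage points over the members and −20.1 over all genes. Among genes with at least 1 tested DRACH site, 28 of 32 members (87.5%) fell, against 89% of all such genes. CSTF3 had no site with 20 reads in each of the 4 libraries and was not tested.

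**Figure D1:**
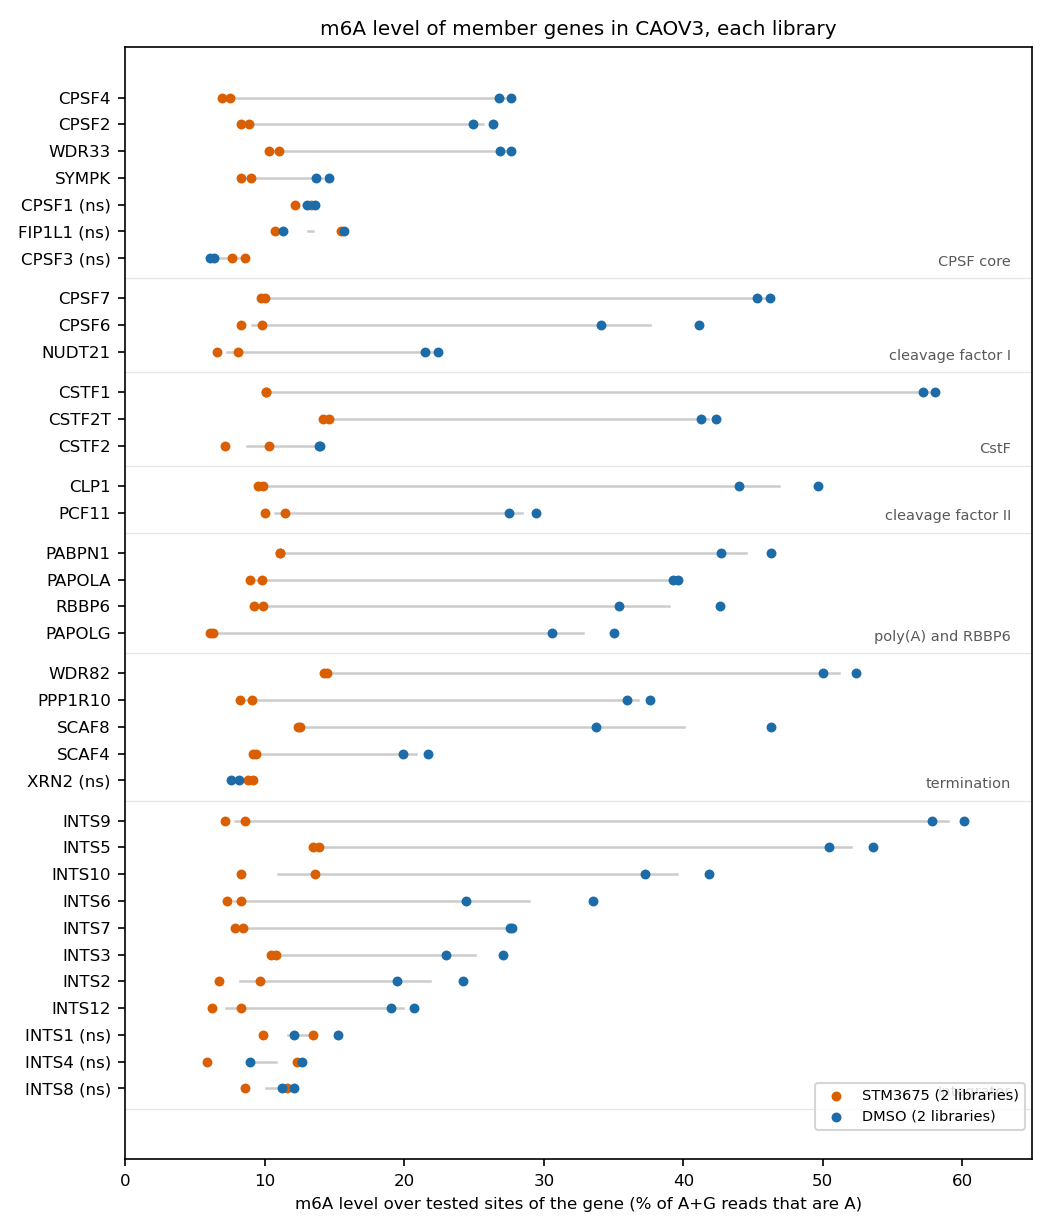
The m6A level over tested sites (x axis, % of A and G reads) is plotted for each of 35 member genes, grouped by role, with both STM3675 libraries (orange) and both DMSO libraries (blue) as points and a line between the group means; ns marks genes that did not pass. STM3675 points sit between 5.83% and 15.4% whatever the DMSO level.

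In the CPSF core, which holds 7 members, 4 genes fell. CPSF4, a zinc finger subunit that binds the polyadenylation signal, showed the largest difference: 7.52% and 6.93% with STM3675, against 26.8% and 27.7% with DMSO (difference −20.0, adjusted p = 9.58e-13). WDR33, which binds the signal together with CPSF4, was at 11.003% and 10.3% with STM3675, against 26.9% and 27.7% with DMSO (adjusted p = 6.25e-09). CPSF2, a partner of the endonuclease that resembles it but is taken to lack activity, fell by 17.1 points, and SYMPK, the scaffold of the complex, fell by 5.46. The groups were apart in each of these genes. CPSF1, CPSF3 and FIP1L1 did not pass. CPSF3, the endonuclease, had no tested DRACH site and lay at 8.58% and 7.67% with STM3675, against 6.04% and 6.38% with DMSO (adjusted p = 0.333). CPSF1, the largest subunit, had 43 tested sites of which 7 were DRACH, and stood at 13.3% and 12.2% with STM3675, against 13.02% and 13.6% with DMSO (adjusted p = 0.562). FIP1L1, which brings in the poly(A) polymerase, overlapped between groups, with 15.4% and 10.7% with STM3675, against 11.3% and 15.7% with DMSO.

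Each of the 3 subunits of cleavage factor I, which binds UGUA upstream of the cut, fell. CPSF7 had 9.76% and 10.0% with STM3675, against 45.3% and 46.2% with DMSO (difference −35.9, adjusted p = 2.99e-18). NUDT21, the subunit that contacts UGUA, had the smallest difference of the 3, with 6.56% and 8.05% with STM3675, against 22.4% and 21.5% with DMSO (adjusted p = 5.9e-09). CPSF6 fell by 28.6 points.

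Within CstF the members differed widely in level. CSTF1, a WD-repeat subunit, had 10.1% in both STM3675 libraries, against 57.2% and 58.1% with DMSO (difference −47.6, adjusted p = 1.94e-19), and all 13 of its tested DRACH sites fell. CSTF2 and CSTF2T encode 2 forms of the RNA-binding subunit. CSTF2T, an intronless gene on chromosome 10, had 14.2% and 14.6% with STM3675, against 42.3% and 41.3% with DMSO (adjusted p = 1.25e-14). CSTF2, its multi-exon counterpart on the X chromosome, had 7.17% and 10.3% with STM3675, against 13.9% and 14.0% with DMSO (adjusted p = 0.0107), a call that was lost without STM3675 replicate 1, with a minimum of 50 reads and with limma on unweighted levels. Over DRACH sites alone the level with DMSO was 61.4% in CSTF2T and 18.4% in CSTF2, which are different sites and were not tested against each other. How reads that fit both copies were counted is not stated in any source used here, which also touches INTS6 with INTS6L and PAPOLA with PAPOLG.

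Both subunits of cleavage factor II fell. CLP1, an RNA 5′ kinase, had 9.49% and 9.87% with STM3675, against 44.0% and 49.7% with DMSO (difference −37.2, adjusted p = 7.91e-16). PCF11, which bridges the 3′ end machinery and the tail domain of RNA polymerase II, had 11.5% and 10.0% with STM3675, against 29.4% and 27.5% with DMSO (adjusted p = 4.14e-09). With a minimum of 50 reads per site the difference of PCF11 was −0.90 points and did not pass (adjusted p = 0.709). All 4 members that act on the tail or activate cleavage fell. PABPN1, the nuclear poly(A)-binding protein, had 11.1% in both STM3675 libraries, against 42.7% and 46.3% with DMSO (difference −33.4, adjusted p = 5.49e-14). PAPOLG, a nuclear poly(A) polymerase, had the smallest difference of these 4, with 6.30% and 6.04% with STM3675, against 30.6% and 35.0% with DMSO (adjusted p = 2.65e-09). PAPOLA, the main nuclear poly(A) polymerase, fell by 30.1 points and RBBP6, an activator of the CPSF endonuclease, by 29.5.

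Of the 5 termination members, 4 fell. WDR82, a subunit of the PP1 phosphatase complex that acts on the elongation machinery, had 14.3% and 14.5% with STM3675, against 50.0% and 52.4% with DMSO (difference −36.8, adjusted p = 2.83e-14). PPP1R10, the PP1 subunit also called PNUTS, fell by 28.1 points. SCAF8 and SCAF4, which bind the polymerase tail and hold back premature polyadenylation, fell by 27.6 and 11.5 points. XRN2, the exonuclease that trails the polymerase, had no tested DRACH site and lay at 9.17% and 8.80% with STM3675, against 7.56% and 8.12% with DMSO (adjusted p = 0.616).

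In Integrator 8 of 11 members fell. INTS9, the partner of the endonuclease subunit, had the largest difference of the 35 genes tested, with 7.16% and 8.57% with STM3675, against 57.9% and 60.1% with DMSO (difference −51.1, adjusted p = 4.57e-12). INTS5, a scaffold subunit, had 13.5% and 13.9% with STM3675, against 53.6% and 50.5% with DMSO (adjusted p = 7.08e-16). INTS10, INTS6, INTS7, INTS3, INTS2 and INTS12 fell by 28.6, 21.2, 19.5, 14.4, 13.7 and 12.7 points. With a minimum of 50 reads INTS2 and INTS12 did not pass, at 4.77 and −11.1 points (adjusted p = 0.254 and 0.0762). INTS6 and INTS8 contact the bound phosphatase PP2A, and INTS3 also forms the SOSS complex of DNA repair. INTS1, INTS4 and INTS8 did not pass. INTS8 had the smallest difference, with 8.55% and 11.6% with STM3675, against 12.1% and 11.3% with DMSO (adjusted p = 0.507). Over its 2 tested DRACH sites alone INTS8 fell (adjusted p = 0.0438). INTS1, the largest subunit, had 13.5% and 9.90% with STM3675, against 12.1% and 15.3% with DMSO (adjusted p = 0.274). INTS4, part of the cleavage module, had no tested DRACH site and lay at 12.3% and 5.83% with STM3675, against 12.7% and 8.93% with DMSO (adjusted p = 0.877). In all 3 genes the groups overlapped.

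The other genes of these pathways numbered 32, of which 30 were listed under the symbols used and tested. Of these 26 fell and 0 rose, against 81.7% and 0.0624% of all genes tested. INIP, a SOSS subunit, averaged 8.82% with STM3675 and 54.8% with DMSO (difference −45.9, adjusted p = 1.29e-17), and INTS6L averaged 7.81% with STM3675 and 52.2% with DMSO (difference −44.4, adjusted p = 4e-09). PABPC1, the cytoplasmic poly(A)-binding protein, averaged 19.5% with STM3675 and 18.3% with DMSO (adjusted p = 0.582), and LSM11 averaged 7.81% with STM3675 and 9.79% with DMSO (adjusted p = 0.278).

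Among 723 member sites with at least 20 reads in each of the 4 CAOV3 libraries, 234 fell and 6 rose. Over all 185923 tested sites 35.2% fell and 0.309% rose. Of the 280 DRACH sites 203 fell, or 72.5%, against 73.9% of all tested DRACH sites, and at each of these 203 both STM3675 values were below both DMSO values. Of the 443 non-DRACH sites 31 fell, or 6.998%, against 7.87% of all. A fallen DRACH site was found in 29 of the 32 members that had a tested one. No share over all genes stands beside this count or that of the 203 separated sites, so neither is read as particular to the members. The median over member DRACH sites was 9.51% with STM3675 and 38.4% with DMSO, and over all tested DRACH sites 9.23% with STM3675 and 37.0% with DMSO. With a minimum of 50 reads, 132 member DRACH sites fell.

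The largest fall with at least 50 reads in each library was at INTS7, 83 nt into its last exon (exon 20, chr1:211940403-211942111, minus strand). This adenosine had 11.2% and 6.19% with STM3675, against 98.8% and 97.8% with DMSO (difference −89.6, adjusted p = 5.16e-98). PPP1R10 followed with 11.3% and 6.17% with STM3675, against 92.5% and 90.5% with DMSO, in last exon 20 (chr6:30600413-30601658, minus strand). The site of CLP1, in last exon 3 (chr11:57660765-57661865, plus strand), had 16.2% and 18.1% with STM3675, against 97.4% and 99.0% with DMSO. At these sites nearly every DMSO read was A and fewer than 1 in 5 STM3675 reads were.

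CSTF1 had 12.3% and 18.6% with STM3675, against 97.5% and 95.4% with DMSO, in last exon 6 (chr20:56403468-56406362, plus strand). INTS5 had 11.7% and 13.4% with STM3675, against 93.1% in both DMSO libraries, 2109 nt into its last exon (exon 2, chr11:62646848-62649999, minus strand). WDR82 had 14.9% and 19.0% with STM3675, against 96.2% and 97.4% with DMSO, in last exon 9 (chr3:52254434-52257519, minus strand). In all 3 genes the site lay in the last exon, and it did so in 10 of the 12 genes.

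PAPOLG had 4.88% and 6.94% with STM3675, against 84.5% and 85.3% with DMSO, in last exon 22 (chr2:60797062-60802086, plus strand). INTS6 had 5.31% and 12% with STM3675, against 84.6% and 87.0% with DMSO, in last exon 18 (chr13:51361577-51365845, minus strand). SCAF4 had 23.5% and 26.2% with STM3675, against 98.2% and 96.6% with DMSO, in last exon 20 (chr21:31671000-31672354, minus strand). SCAF4 thus kept the most of the 12, with 0.255 of its DMSO level.

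INTS9 had 8.39% and 10.5% with STM3675, against 77.5% and 84.1% with DMSO, in last exon 17. The other two sites lay outside last exons. RBBP6 had 20.3% and 9.28% with STM3675, against 90.6% and 96.2% with DMSO, 723 nt into a first exon of 1227 nt (chr16:24539566-24540792, plus strand). CSTF2T had 17.7% and 20.2% with STM3675, against 95.1% and 92.0% with DMSO, in its only exon (chr10:51695486-51699595, minus strand). The adjusted p-values of these 12 sites lay between 5.16e-98 and 1.06e-30, and no alternative setting ended a call.

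By exon type, a fall was called at 147 of 174 DRACH sites in last exons (84.5%, against 81.7% over all genes), at 33 of 74 in internal exons (44.6%, against 56.6%), at 7 of 14 in first exons (50.0%, against 55.5%) and at 16 of 18 in the single exon of CSTF2T (88.9%, against 88.9% of such sites). The difference in internal exons between members and all genes was not tested. Internal DRACH sites of members had a mean of 10.8% with STM3675 and 30.3% with DMSO, against 11.1% with STM3675 and 37.0% with DMSO over all genes. In internal exons of 400 nt or more, a length chosen after the values were seen, 13 of 17 sites fell (76.5%, against 82.1% over all genes), and in shorter ones 20 of 57 (35.1%, against 34.5%). Long exons held 17 of the 74 internal member sites and 9012 of the 19396 of all genes. The long ones include exon 8 of PCF11, 1568 nt long, where adenosines 83169729, 83168681 and 83169896 had 23.3%, 18.8% and 9.82% with STM3675, against 95.8%, 91.0% and 88.9% with DMSO (means of 2 libraries). Exon 2 of CLP1 held an adenosine, at 57659736, with 20.0% with STM3675 and 100% with DMSO.

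By motif, 26 of 28 member sites in GAACT fell, 36 of 40 in AGACT, 39 of 49 in GGACT, 17 of 23 in TGACT, 27 of 39 in GGACA and 19 of 28 in GGACC. Over all genes the shares that fell were 88.3%, 81.7%, 86.8%, 81.4%, 73.3% and 61.1% in the same order. The non-DRACH sites that fell lay most often in 3 motifs that each differ from DRACH at a single base. In GGATT 8 of 16 tested member sites fell (50.0%, against 44.3% of all such sites), in 7 genes: CLP1, CSTF1, PAPOLA, PCF11, PPP1R10, RBBP6 and SCAF4. In GGACG 4 of 10 fell (40.0%, against 48.1%) and in GCACT 4 of 4, against 40.2% of all. The 4 GCACT sites averaged 6.73% with STM3675 and 47.3% with DMSO, and all 706 tested GCACT sites averaged 7.95% with STM3675 and 21.9% with DMSO.

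Of the DRACH sites at 50% or more with DMSO and 50 or more reads in each library, all 67 fell, as did 15666 of the 15668 such sites of all genes. They kept a median of 0.143 of their DMSO level with STM3675 (quartiles 0.112 and 0.198), against 0.151 over all genes (quartiles 0.119 and 0.200). The 3 that kept the most are these, with the measured adenosine in capitals.
CSTF2T 51698529: ggAct
INTS5 62649555: gaAct
INTS5 62649508: ggAca
The CSTF2T site had 56.2% and 64.9% with STM3675, against 99.3% and 98.3% with DMSO, a share of 0.613. The site of INTS5 at 62649555 had 39.7% and 46.6% with STM3675, against 96.1% and 98.6% with DMSO. Its neighbour at 62649508 had 39.6% and 43.5% with STM3675, against 100% in both DMSO libraries. These 3 sites still fell (adjusted p = 3.9e-23, 1.96e-22 and 2.91e-65), and in both genes another adenosine of the same exon was among the largest falls.

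The 6 member sites called higher were all non-DRACH and had 20 to 92 reads per library. INTS2 61867627 (tgAtg) had 18.9% and 31.2% with STM3675, against 2.56% and 3.57% with DMSO (adjusted p = 0.00883). PPP1R10 30605061 (taAtt) had 13.6% and 9.52% with STM3675, against 0 of 34 and 0 of 49 reads with DMSO, which allow up to 8.82% and 6.12% by counting error. CPSF7 61420005 (ggAcg), INTS3 153767802 (ccAcc), WDR33 127764965 (ccAgt) and FIP1L1 53377839 (ccAtg) rose by 16.3, 29.0, 11.7 and 18.7 points. Each of the 6 lost its call in at least 1 setting that left out a library, with 0 member sites called higher without STM3675 replicate 2, 2 without STM3675 replicate 1 and 3 without DMSO replicate 1.

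Coverage is the number of A and G reads at the listed sites of a gene, given in RPM after trimmed-mean (TMM) scaling. It follows RNA abundance only indirectly and is relative to the library total. In bulk cells, fewer cells that express a gene and less of its RNA per cell cannot be told apart. After STM3675, 7 members were higher and 20 lower, with 9 not called. Over all 12826 genes tested 27% were higher and 25.7% lower (edgeR quasi-likelihood test). CLP1, INTS5, RBBP6 and CSTF1 rose by 1.79-fold or more. The median log2 change was −0.24 over the members and −0.01 over all genes.

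**Figure D2:**
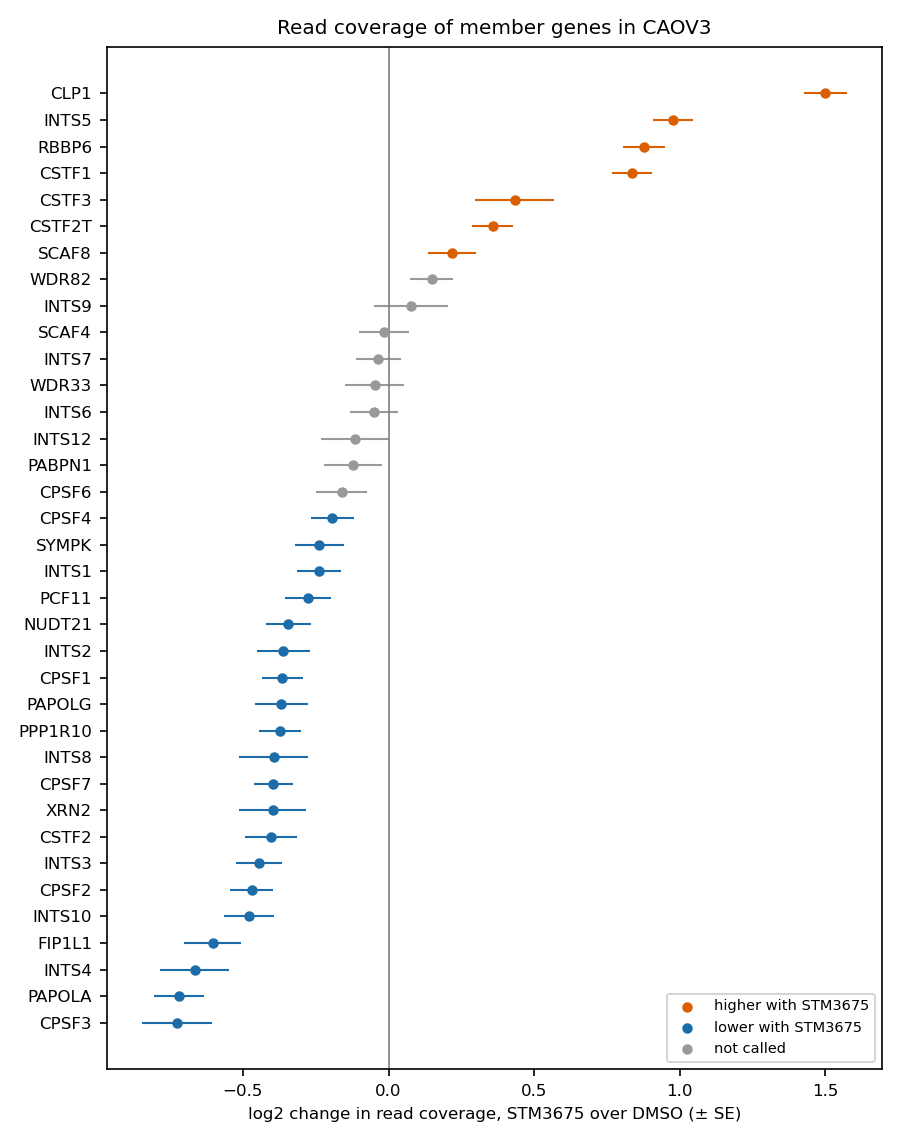
The log2 change in read coverage with STM3675 over DMSO (x axis, points with bars of 1 SE) is shown for each of 36 member genes, ordered by the change and coloured by the call. CLP1, INTS5, RBBP6 and CSTF1 stand apart at 0.84 to 1.50, and the lowest are CPSF3, PAPOLA, INTS4 and FIP1L1 at −0.73 to −0.60.

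CLP1 had 361 and 362 RPM with STM3675, against 123 and 133 with DMSO, a log2 change of 1.50 (SE 0.0736, adjusted p = 4.84e-07). INTS5 had 252 and 257 with STM3675, against 127 and 132 with DMSO, a log2 change of 0.98 (SE 0.0701, adjusted p = 3.06e-06). RBBP6 had 207 and 197 with STM3675, against 108 and 112 with DMSO, a log2 change of 0.88 (SE 0.0724, adjusted p = 7.42e-06). CSTF1 had 426 and 447 with STM3675, against 241 and 247 with DMSO, a log2 change of 0.84 (SE 0.0687, adjusted p = 7.23e-06). The groups lay well apart in these 4 genes, and the calls held in every alternative, including the use of 1 site per gene. CSTF3, CSTF2T and SCAF8 rose by 0.43, 0.36 and 0.22 on the log2 scale, and each of these calls was lost without STM3675 replicate 1.

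CPSF3 had 15.7 and 16.6 RPM with STM3675, against 25.4 and 28.1 with DMSO, a log2 change of −0.73 (SE 0.120, adjusted p = 0.00064). PAPOLA had 111 and 105 with STM3675, against 191 and 165 with DMSO, a log2 change of −0.72 (SE 0.0862, adjusted p = 8.6e-05). INTS4 had 17.4 and 16.3 with STM3675, against 25.7 and 27.9 with DMSO, a log2 change of −0.67 (SE 0.118, adjusted p = 0.000981). FIP1L1 fell by 0.60 and INTS10 by 0.48 (adjusted p = 0.000593 and 0.00106). Of these 5, PAPOLA alone passed with a single site per gene.

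By role, 6 of 7 CPSF subunits were lower and 0 higher, whereas 3 of 4 CstF subunits were higher and CSTF2 was lower, with a log2 change of −0.40. Several of these calls were not firm: CPSF4 (log2 change −0.19, adjusted p = 0.0498) kept its call in 2 of 9 alternatives and SYMPK (−0.24) in 5 of 9, both losing it with DESeq2 and without either STM3675 library. In cleavage factor I 2 of 3 were lower, and in cleavage factor II CLP1 was higher and PCF11 lower. Among the 11 Integrator members INTS5 was higher, 6 were lower and 4 were not called. The count of lower members was 9 without either STM3675 library and 1 (PAPOLA) with 1 site per gene, and the count of higher members was 4 without STM3675 replicate 1 and with 1 site per gene. Of the 30 other pathway genes tested, 6 were higher and 10 lower, against 27% and 25.7% of all genes. Their log2 changes ran from 1.46 for LSM10 and 1.17 for INTS15 to −0.93 for INTS6L and −0.60 for SNRPC.

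Members with more m6A before treatment tended to have the higher coverage change. Over the 32 members with a tested DRACH site, the DRACH level with DMSO and the log2 change in coverage had a Pearson r of 0.49 and a Spearman rho of 0.51, given as a description because both come from the same 4 libraries. The 6 higher members with such a site had DRACH levels of 43.6% to 68.0% with DMSO, and the 17 lower members had 9.23% to 75.7% with a median of 36.7%. The ranges overlap: PAPOLG had the highest DRACH level, 75.7% over 2 sites, and its coverage was lower (log2 change −0.37, adjusted p = 0.00714).

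Coverage of separate exons was compared to see whether a gene changed evenly along its length, a comparison added after other values were seen. Of 34 members tested with edgeR's exon usage test 0 were called, against 0.509% of all genes, and 3 had an unadjusted p under 0.05 (RBBP6, INTS7 and PCF11). RBBP6 had the smallest adjusted p (0.338). Its first exon had 48.5 and 44.3 RPM with STM3675, against 34.2 and 35.0 with DMSO (log2 change 0.42, SE 0.119). Its last exon 18 (chr16:24570876-24572863) had 105 and 109 with STM3675, against 45.6 and 47.6 with DMSO (log2 change 1.19, SE 0.104). Without DMSO replicate 2 the test called 3 members, RBBP6 among them (adjusted p = 0.0372). In CLP1 exons 2 and 3 had log2 changes of 1.34 and 1.59, and in CSTF1 exons 3, 5 and 6 had 0.88, 0.84 and 0.88.

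Turning to the 6 lines with DMSO, INTS9, CSTF1 and INTS5 were among the 6 members with the highest m6A level in each line, and XRN2, CPSF3 and FIP1L1 among the 7 lowest. The level of the gene differed among lines in 20 of 35 members tested, against 62.5% of all 8438 genes (any difference, quasi-binomial model). The median range of line means was 9.93 percentage points over members and 11.3 over all genes. Over 188 non-DRACH member sites the mean level was 13.0% in A549, 13.8% in CAOV3, 8.52% in COV644, 16.3% in EFO21, 7.92% in OE21 and 15.6% in SKOV3. These sites are part of the summed gene levels, and their share in the range was not tested. Limma was run on gene levels averaged over sites without weighting by reads, so its ranges differ from the main ones in weighting too. With limma on uncorrected levels 14 members differed, a count given without a share over all genes and so not read as particular to the members. With limma on levels corrected for each library's background, taken as the median of its tested non-DRACH sites, 5 differed, against 23.7% of all genes. These were CSTF1, CSTF2T, NUDT21, PABPN1 and WDR82.

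**Figure D3:**
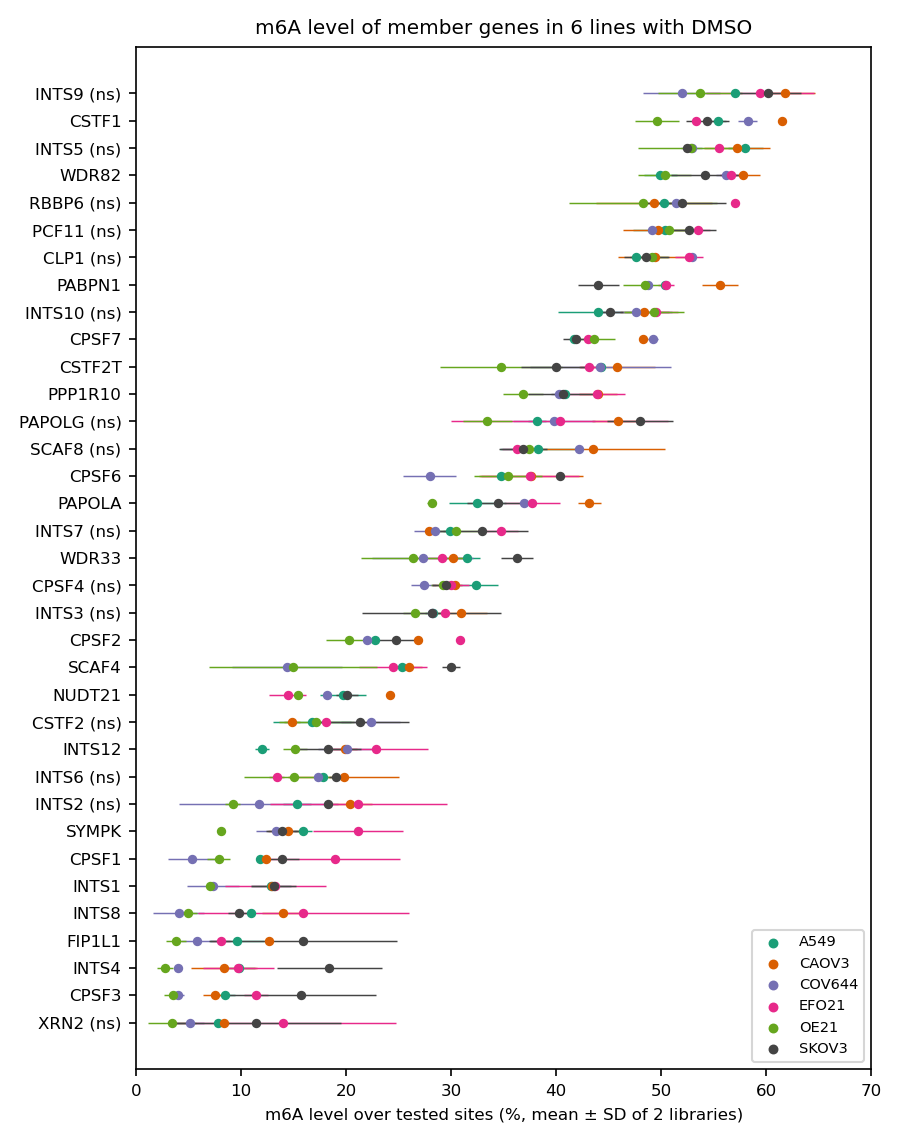
The m6A level over tested sites (x axis, %, mean with SD of 2 libraries) is shown for 35 member genes, ordered by their mean over lines, with 1 colour per line; ns marks genes that did not pass among lines. INTS9, CSTF1, INTS5 and WDR82 lie between 49.6% and 61.8% in each line, and CPSF3, XRN2 and INTS4, without a tested DRACH site, lie at the low end.

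CSTF1 had 55.4% ± 0.733 in A549, 61.5% ± 0.283 in CAOV3, 58.2% ± 0.915 in COV644, 53.3% ± 0.126 in EFO21, 49.6% ± 2.08 in OE21 and 54.4% ± 2.05 in SKOV3 (SD, n = 2 each, model adjusted p = 1.14e-05). CAOV3 stood above the other lines and OE21 below them. PAPOLA had 32.5% ± 2.69 in A549, 43.2% ± 1.06 in CAOV3, 36.9% ± 0.336 in COV644, 37.7% ± 2.67 in EFO21, 28.1% ± 0.430 in OE21 and 34.4% ± 2.90 in SKOV3 (SD, n = 2 each, model adjusted p = 5.55e-05). Again CAOV3 was highest and OE21 lowest, though with the corrected levels the adjusted p of PAPOLA was 0.0599.

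CPSF6 ran from 28.0% ± 2.52 in COV644 to 40.4% ± 0.265 in SKOV3 (SD, n = 2 each, model adjusted p = 0.00105). It also passed over DRACH sites alone (model adjusted p = 0.00178). Its range of 12.4 points was 2.85 with corrected levels (limma adjusted p = 0.805), which are also not weighted by reads. It did not pass with limma on unweighted levels without correction either. SCAF4 ran from 14.4% ± 5.23 in COV644 to 30.0% ± 0.845 in SKOV3 (SD, n = 2 each, model adjusted p = 0.0032), and did not pass over DRACH sites alone (adjusted p = 0.0878) or with corrected levels, where its range was 5.04 points (adjusted p = 0.265). INTS4 ran from 2.75% ± 0.789 in OE21 to 18.4% ± 5.02 in SKOV3 over 4 sites without a DRACH, CPSF1 from 5.36% ± 2.36 in COV644 to 18.9% ± 6.23 in EFO21, and SYMPK from 8.12% ± 0.364 in OE21 to 21.1% ± 4.28 in EFO21 (SD, n = 2 each). These 3 genes passed (model adjusted p = 0.00544, 0.000473 and 0.000319). In each of the 3 the lowest lines were OE21 and COV644, the lines with the lowest medians over non-DRACH sites. None passed with corrected levels (limma adjusted p = 0.316, 0.216 and 0.129), and the cause was not tested. Over DRACH sites alone CPSF1 and SYMPK passed (model adjusted p = 0.0227 and 0.0115), with a range of 12.9 points in each.

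The smallest ranges were in PCF11, INTS3 and CPSF4. PCF11 lay between 49.1% ± 0.166 in COV644 and 53.5% ± 1.17 in EFO21 (SD, n = 2 each, model adjusted p = 0.762). INTS3 lay between 26.6% ± 1.13 in OE21 and 31.0% ± 2.43 in CAOV3, and CPSF4 between 27.4% ± 1.17 in COV644 and 32.4% ± 2.06 in A549 (SD, n = 2 each, model adjusted p = 0.514 and 0.103). In none of the 3 did any line pass against the mean of the other 5 lines over all tested sites.

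Each line was also set against the mean of the other 5. CAOV3 was higher in 7 members (NUDT21, CPSF7, CSTF1, PAPOLA, PABPN1, PPP1R10 and WDR82) and lower in 0, against 39.1% and 0.699% of all genes. OE21 was lower in 15 members and higher in 0, against 43.5% and 1.28% of all genes. COV644 was lower in 5 and higher in 1 (16.2% and 6.39% of all genes), and EFO21 was higher in 3 and lower in 1 (7.5% and 3.58%). SKOV3 was higher in 4 and lower in 2 (7.24% and 4.34%), and A549 was higher in 0 and lower in 3 (4.46% and 3.31%). Over DRACH sites alone 18 of 32 members differed among lines, against 58.4% of all genes. CAOV3 was then higher in 12 members and lower in 0 (43.1% and 0.754% of all genes), and OE21 was higher in 1 and lower in 7 (1.74% and 30.6%). A549 was higher in 1 and lower in 5 (5.17% and 6.07%), and COV644 was higher in 3 and lower in 1 (11.3% and 7.81%). EFO21 was higher in 0 and lower in 2 (4.28% and 6.57%), and SKOV3 was higher in 1 and lower in 4 (2.02% and 7.36%). Over the 129 member DRACH sites that average at least 25%, the mean level was 64.4% ± 0.641 in CAOV3, 62.3% ± 1.29 in COV644, 59.9% ± 0.774 in EFO21, 58.8% ± 0.02 in A549, 57.9% ± 0.517 in SKOV3 and 57.4% ± 0.934 in OE21 (SD, n = 2 each).

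Of 374 member sites with at least 20 reads in each of the 12 DMSO libraries, 136 differed among lines, against 39.5% of all 68873 sites. Here too the DMSO values compared are those that chose the sites. Of these, 64 were among 186 DRACH sites (34.4%, against 39.1% of all) and 72 among 188 non-DRACH sites (38.3%, against 40.0% of all). The count was 14 with limma on unweighted levels, 8 with levels corrected for the background, 89 without COV644 replicate 2 and 86 without OE21 replicate 2. No shares over all sites stand beside these counts, so they are not read as particular to the members. The 8 with the widest range, 1 per gene and with 50 or more reads in each library, were all DRACH.
WDR82 52257494: tgAct
WDR33 127706289: ggAca
SCAF8 154832483: ggAcc
CPSF6 69269599: gaAct
CSTF1 56399314: aaAct
CLP1 57661165: agAct
INTS5 62649409: tgAct
CPSF7 61404645: ggAct
The WDR82 site had 24.6% in A549, 41.1% in CAOV3, 33.5% in COV644, 20.0% in EFO21, 14.96% in OE21 and 26.3% in SKOV3, with SDs of at most 4.54 (model adjusted p = 1.28e-08). The CPSF7 site had 41.9% in A549, 63.4% in CAOV3, 61.4% in COV644, 44.98% in EFO21, 48.3% in OE21 and 47.2% in SKOV3 (adjusted p = 4.32e-08), so that CAOV3 and COV644 stood above the other lines. The WDR33 site had 55.2% in A549, 76.6% in CAOV3, 79.6% in COV644, 70.1% in EFO21, 54.0% in OE21 and 61.2% in SKOV3 (adjusted p = 6.21e-05), and the EFO21 libraries overlapped those of CAOV3. At the CPSF6 site COV644 stood alone below the others, with 54.1% ± 7.52 against 70.9% to 77.5% in the other lines (adjusted p = 2.48e-12). At the INTS5 site it was SKOV3 that was low, with 35.0% ± 2.31 against 48.3% to 56.9% in the others. OE21 was lowest at the CSTF1 and CLP1 sites, with 24.2% ± 4.72 and 32.5% ± 0.743, and at SCAF8 the means ran from 48.2% in A549 to 72.3% in COV644 with SDs of up to 14.9. With limma on unweighted levels the sites of CPSF6, CSTF1, CLP1 and SCAF8 did not pass, and with corrected levels that of WDR82 did not either, whereas those of CPSF7 and WDR33 passed in each alternative run.

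At the other end, 21 of the 186 DRACH sites had a mean of 90% or more in each of the 6 lines. This limit was chosen after the values were seen, and the share of such sites over all genes is not given. The 21 sites lie in 10 genes, with 4 each in CLP1 and INTS5, 3 each in CSTF2T and RBBP6, 2 in WDR82 and 1 each in INTS7, PCF11, CSTF1, SCAF4 and SCAF8. The 3 in RBBP6, at 24540259, 24540274 and 24540288, fall within 30 nt of its first exon and had 36.4%, 24.8% and 14.8% with STM3675 in CAOV3, against 97.2%, 98.7% and 93.4% with DMSO (means of 2 libraries). The INTS7 site shown first lay between 96.2% in OE21 and 98.3% in CAOV3.

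Coverage differed among lines in all 36 members, against 99.1% of all 13704 genes tested (any difference, edgeR quasi-likelihood test), and the highest line exceeded the lowest by 1.35-fold (PAPOLG) to 11.9-fold (CPSF4), with a median of 2.30-fold. CPSF4 had 428 ± 100.7 RPM in OE21, against 35.98 ± 7.91 in SKOV3 and 102 to 131 in the other lines. CPSF6 had 482 ± 66.8 in COV644, against 54.8 ± 2.54 in CAOV3 and 100.9 to 124 in the rest. Its log2 range of 3.13 was 1.62 to 3.27 over the alternatives. With 1 site per gene, 31 members kept their coverage call among lines and 5 lost it. INTS3 had 709 ± 34.8 in COV644 and 260 ± 4.77 in EFO21, against 86.5 to 125 in the other lines. In CPSF4 and CPSF6 a single line stood above the rest, whereas in INTS3 both COV644 and EFO21 did.

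**Figure D4:**
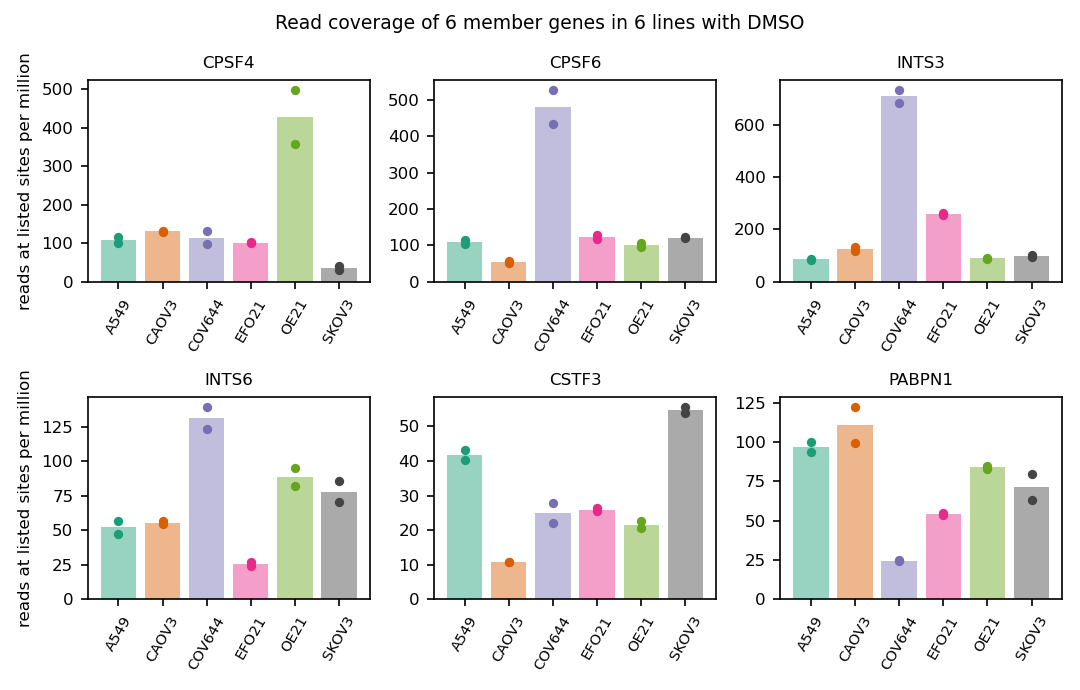
Coverage at listed sites in RPM (y axis) is shown for the 6 members with the widest range among lines, with bars for the mean and points for the 2 DMSO libraries of each line. CPSF4 stands out in OE21, and CPSF6 and INTS3 in COV644.

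INTS6 ran from 25.7 ± 2.02 in EFO21 to 131 ± 11.3 in COV644, CSTF3 from 10.8 ± 0.0707 in CAOV3 to 54.8 ± 1.30 in SKOV3 and PABPN1 from 24.5 ± 0.314 in COV644 to 111 ± 16.2 in CAOV3 (SD, n = 2 each). The adjusted p-values of these 6 genes lay between 3.03e-13 and 1.27e-08 in the edgeR fit, the highest that of PABPN1. The m6A level of CPSF4 and INTS3, which have 2 of these widest coverage ranges, was among the 3 narrowest among lines.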

How the data were processed

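GLORI libraries of polyadenylated RNA were made from 7 groups of 2 libraries. Per the submitters' processing notes, reads were trimmed with cutadapt and aligned with STAR to GRCh38; no source used here gives versions, settings or the site caller. The authors deposited, per site and library, counts of A and G reads and the fraction of them that is A, from which A counts were recovered as whole numbers within 1e-06. In column names, D was taken as DMSO and T as treated. The spike-in probes were not analysed here.

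The 36 members, the lists and the rules for named genes were chosen with earlier results of these data known. Named were, per role, the members with the largest and smallest difference, the 12 largest falls, 3 largest shares kept and all rises among sites, and the 8 sites and 6 genes with the widest range among lines. A site entered a test if it had 20 reads in each library compared, and was tested by logistic models with quasi-binomial dispersion moderated with limma 3.58.1 (R 4.3.3) and F tests, and genes on counts summed over such sites. All p-values were adjusted by the Benjamini-Hochberg method over all sites or genes, with a threshold of 0.05. Coverage was tested with edgeR 4.0.16 (TMM, filterByExpr, quasi-likelihood), with DESeq2 1.42.0 as an alternative. Reads covering several sites count at each. The deposited counts do not show whether duplicates were merged, so errors from counting are lower limits. Scripts were tested on simulated data. Figures were drawn with matplotlib 3.10.9.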

Additional observations from a re-analysis of the deposited data

How the results depend on the processing

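Member counts for STM3675 against DMSO changed as follows. With a minimum of 50 reads 153 sites fell (132 DRACH) and 1 rose. With limma on unweighted levels 19 non-DRACH sites fell and 1 site rose. Replicate numbers did not pair the libraries (r = −0.0025 in CAOV3, −0.030 to 0.024 among lines); with a replicate block 20 non-DRACH sites fell, 3 sites rose, and 28 genes fell as before. Restricting to sites that no CAOV3 DMSO library passed selects sites low in CAOV3 by construction, and left 10 sites that fell (8 DRACH, 2 non-DRACH), 2 that rose and 3 genes that fell; WDR33 (1.86), NUDT21 (1.38), CPSF6 (1.53), CPSF7 (1.09), PCF11 (0.41), PABPN1 (0.29), RBBP6 (1.54), PPP1R10 (1.79), INTS2 (0.34), INTS3 (0.44), INTS6 (1.27) and INTS10 (2.90) then had positive differences in points, none called. Sites that passed in another line, whatever CAOV3, chosen after seeing the data, gave 203 DRACH falls, 10 rises and 28 genes that fell. INTS2 was at 4.77 with 50 reads, and was not called. With 1 site per gene, coverage was lower in 1 member and higher in 4, and CSTF3 (−0.13), PCF11 (0.20) and SCAF8 (−0.025) changed sign.

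Leaving out a library gave 193 to 232 sites that fell, 0 to 7 that rose, 175 to 197 DRACH and 17 to 35 non-DRACH falls, 27 to 29 genes that fell, 9 to 23 members with lower and 4 to 8 with higher coverage, 0 to 3 members with uneven exons, and among lines 86 to 161 sites and 18 to 21 genes.

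Among lines, 52 sites and 13 genes differed with 50 reads, 14 sites with limma, and 8 sites and 5 genes with corrected levels. Counts of members against the mean of the other 5 lines were small and moved with most settings. With 50 reads CAOV3 was higher in 12, COV644 higher in 3 and lower in 1, EFO21 higher in 0 and lower in 3, OE21 lower in 7 and SKOV3 higher in 1. With 10 reads COV644 was higher in 2 and lower in 11, EFO21 higher in 5 and SKOV3 higher in 8. With limma A549 was lower in 0, COV644 lower in 3, EFO21 lower in 0, and SKOV3 higher in 2 and lower in 1. With corrected levels A549 was lower in 0, CAOV3 higher in 2, COV644 higher in 3 and lower in 0, EFO21 higher in 1, OE21 lower in 0 and SKOV3 higher in 0. Over DRACH sites A549 was higher in 1 and lower in 5, CAOV3 higher in 12, COV644 higher in 3 and lower in 1, EFO21 higher in 0 and lower in 2, OE21 higher in 1 and lower in 7, and SKOV3 higher in 1 and lower in 4. Without single libraries A549 was lower in 0 to 3, CAOV3 higher in 5 to 10, COV644 higher in 1 to 2 and lower in 2 to 6, EFO21 higher in 0 to 6 and lower in 0 to 2, OE21 lower in 8 to 17, and SKOV3 higher in 0 to 5 and lower in 1 to 2. The causes were not tested. Sites near 20 reads carry wide counting error, and with 2 libraries per group small differences could pass undetected.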
